A study of Homo sapiens with 4 samples.

Results

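The epithelial-mesenchymal transition (EMT) is the program in which epithelial cells loosen their contacts and take on the shape and motility of mesenchymal cells. It is driven by a small set of transcription factors. The zinc finger repressors SNAI1 and SNAI2 and the zinc finger homeobox proteins ZEB1 and ZEB2 silence epithelial genes such as CDH1, the gene of E-cadherin. The basic helix-loop-helix (bHLH) proteins TWIST1 and TWIST2 pair with E proteins such as TCF4 to bind DNA, and PRRX1 is a homeobox factor of mesenchymal cells. OVOL1 and GRHL2 act on the other side, as factors that maintain the epithelial state. N6-methyladenosine (m6A) is a mark set on mRNA inside the sequence RRACH, and reader proteins such as YTHDC1 bind it and change how the mRNA is spliced, exported or degraded.

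These 10 genes were examined in an m6A-seq list from the MDA-MB-231 cell line, which was established from a human triple negative breast cancer. The study compared 2 libraries of poly(A) RNA immunoprecipitated (IP) with an anti-m6A antibody with 2 libraries of input RNA, and all 4 came from cells labelled shNS, which the study used as its control. In the labels the treatment field of the IP libraries names YTHDC1, whereas titles and protocol describe the m6A antibody, so they were taken as m6A IP. The list held 20261 peaks on 10140 gene IDs, and the members were found in it by gene ID and symbol. Of the 10 factors, 7 had a peak, with 16 peaks in all, and TWIST2, OVOL1 and GRHL2 had none. The list gives 1 score per peak for the 4 libraries together. It was read as a p-value of IP against input, so that peaks with smaller scores are called stronger. No spread between replicates and no depth could be obtained, and no member was tested.

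Scores in this list differ by strand, so each factor was set against genes of its own strand. The strongest peak of a gene had a median score of 4e-22 for the 6624 minus-strand genes with a peak and 1e-06 over the 3516 plus-strand genes. Among protein-coding genes of RefSeq, 55.6% of those on the minus strand and 29.3% of those on the plus strand had a peak, and 40.8% did over both strands. The median score of the list was 5.2e-08, and a peak that reached it (that score or a smaller one) was present for 43.8% of minus-strand genes, 12.2% of plus-strand genes and 26.6% of all. Of the 7 factors with a peak, SNAI2, ZEB2, TWIST1 and TCF4 are on the minus strand and SNAI1, ZEB1 and PRRX1 on the plus strand. The median was reached by 5 of the 10 factors, namely the 4 on the minus strand and ZEB1. A list of genes without expression values cannot tell an unmethylated mRNA from one that was weakly expressed. It also cannot show whether the cells were of the labelled type.

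**Figure D1:**
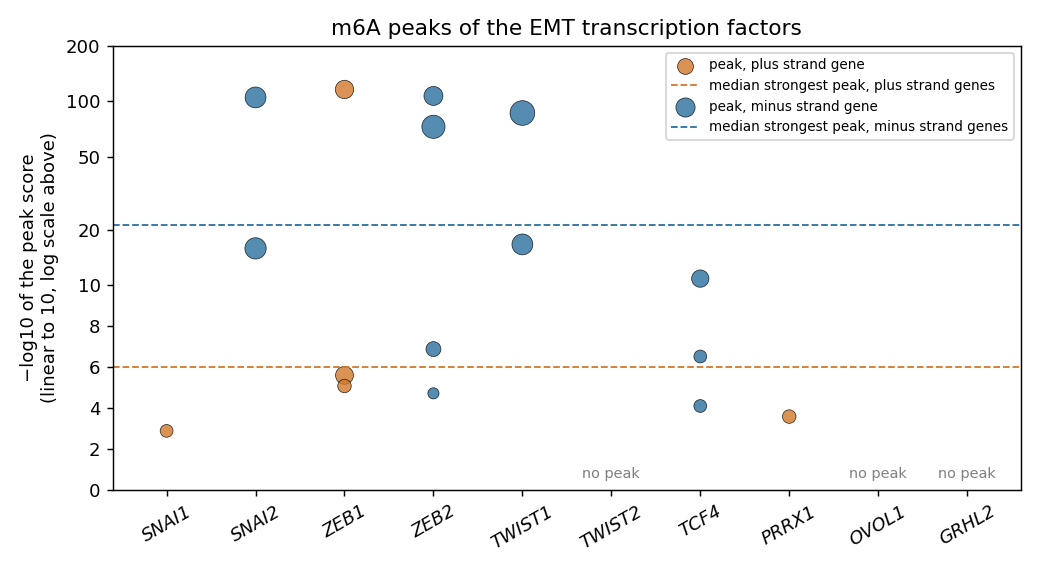
Score of each m6A peak of the EMT factors, as −log10 on an axis that is linear to 10 and logarithmic above, with larger points for longer peaks and dashed lines at the median strongest peak of each strand. The strongest peaks of SNAI2, ZEB1, ZEB2 and TWIST1 lie between 86.4 and 116, and SNAI1 and PRRX1 lie under the plus-strand median.

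ZEB1 carried the strongest peak of the group. ZEB1 represses epithelial genes and is itself held down by the miR-200 family of microRNAs. Its gene (ENSG00000148516.21, chromosome 10, plus strand, RefSeq span 31318417 to 31529804) had 3 peaks with 990 spliced bases. The third, chr10:31526851-31527270, was 420 bases long with a score of 1e-116, and 2534 bases of the gene followed it. The second, chr10:31521609-31521788, was 180 bases long with a score of 8.3e-06. The first, chr10:31318495-31319086, had 2 blocks of 86 and 304 bases and a score of 2.5e-06. So 1 of the 3 peaks was far stronger than the others, and neither of the weaker ones reached the list median. A strongest peak at or under the ZEB1 score was found in 135 of the 3516 plus-strand genes with a peak. This share is 3.84% (95% Wilson interval 3.25 to 4.53%). All genes of the list were counted, so this interval and those below treat them as if they were a random draw. The intervals do not cover the spread between replicates or the error of a score.

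The peaks of ZEB1 were unequal in score. The −log10 score of its second strongest peak was 0.0483 of that of the strongest (5.60 against 116). Among the 1286 plus-strand genes with 2 or more peaks the median of this ratio was 0.552, and 3.81% of them had a ratio as low as ZEB1 or lower. The ratio depends on the strongest score. No score in the list exceeded 0.0089, so only genes with a very strong top peak can have so low a ratio. It is therefore not a trait of ZEB1 separate from its strongest peak.

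ZEB2, the paralog of ZEB1, had the most peaks of the group. Its gene (ENSG00000169554.21, chromosome 2, minus strand, 144384081 to 144520119) had 4 peaks with 1504 bases. The strongest, chr2:144389415-144389865, was 451 bases long with a score of 1e-107. The other 3 stood close together upstream of it. They were 721 bases at chr2:144398523-144399243 (score 2e-73), 91 bases at chr2:144399482-144399572 (1.9e-05) and 241 bases at chr2:144399842-144400082 (1.3e-07). Gaps of 238 and 269 bases separated them, and together they filled 1053 bases of a region of 1560. ZEB2 thus had 2 strong peaks and 2 that did not reach the list median, and its second strongest peak had 0.679 of the −log10 score of the strongest.

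The scores of the strongest peaks of ZEB1 and ZEB2 were close, but their standing among genes of their strand was not. For ZEB2, 1350 of 6624 minus-strand genes, or 20.4% (19.4 to 21.4%), had a strongest peak at or under its score. Set against the genes of the other strand, the share was 4.29% for ZEB2 and 18.9% for ZEB1. With both strands pooled it was 14.8% for ZEB2 and 13.7% for ZEB1, so the separation of the pair came with ranking inside each strand. Whether the cells methylate the 2 mRNAs to different degrees cannot be read from these scores.

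**Figure D2:**
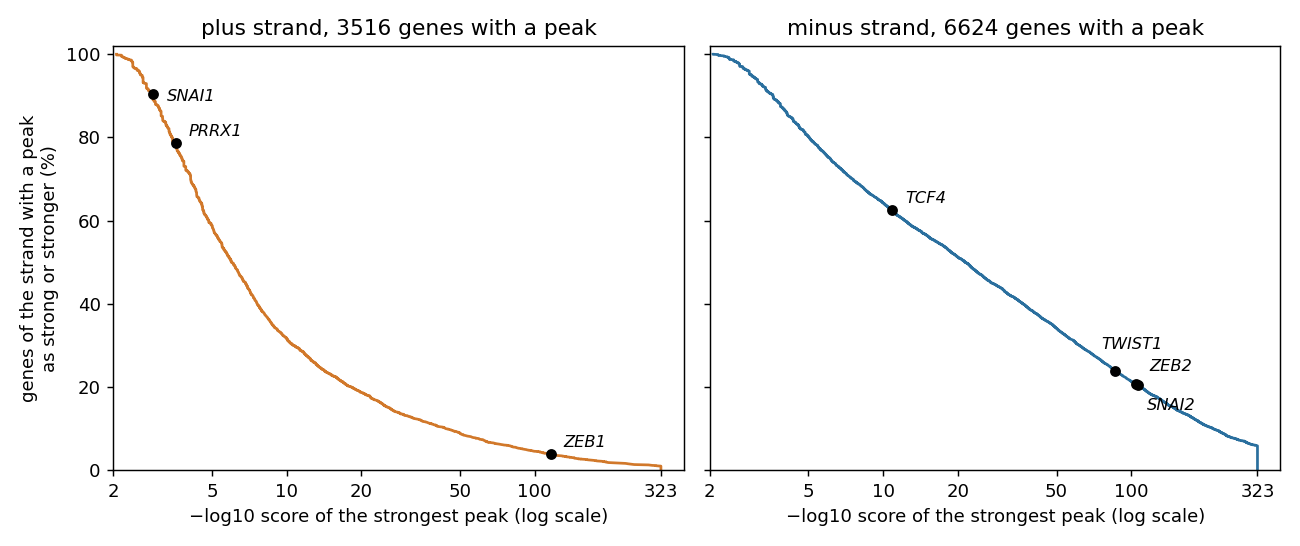
Share of genes of each strand (in %) with a strongest peak as strong as the value on the x axis or stronger, plotted against the −log10 score on a log axis, with the EMT factors as points and scores listed as 0 placed at 323. At nearly the same score, ZEB1 lies at 3.84% of plus-strand genes and SNAI2 and ZEB2 lie at 20.7% and 20.4% of minus-strand genes.

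The SNAI pair was unequal. SNAI2, also known as Slug, had 2 long peaks (ENSG00000019549.13, chromosome 8, minus strand, 48917598 to 48921429). One of 568 bases at chr8:48919864-48920431 had a score of 1e-105, and one of 597 bases at chr8:48918493-48919089 had a score of 1.3e-16. Both reached the list median. They held 1165 bases of a gene that spans 3832 bases with introns, and 19.7% of minus-strand genes with a peak had as many peak bases or more. The strongest SNAI2 peak was reached by 1369 of 6624 minus-strand genes, or 20.7% (19.7 to 21.7%).

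SNAI1, a direct response gene of TGF-β signalling that the study followed after TGF-β treatment, had 1 weak peak (ENSG00000124216.4, chromosome 20, plus strand, 49982980 to 49988886). It was 150 bases long at chr20:49988378-49988527, with a score of 0.0013, and 359 bases of the gene followed it. Among plus-strand genes with a peak, 3179 of 3516 or 90.4% (89.4 to 91.3%) had a strongest peak as strong or stronger, so SNAI1 was near the weak end of its own strand as well. The largest score in the whole list was 0.0089.

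Of the TWIST pair, one gene had peaks and the other had none. TWIST1 (ENSG00000122691.13, chromosome 7, minus strand, 19113047 to 19117636) had 2 peaks with 1402 bases, in a gene that spans 4590 bases. The stronger, chr7:19115548-19116921, had blocks of 584 and 251 bases and a score of 4e-87. At 835 spliced bases it was the longest peak of the 10 factors, and 6.47% of minus-strand peaks were as long or longer. The other, chr7:19117070-19117636, was 567 bases long with a score of 2e-17 and began at the first base of the RefSeq span. Both reached the list median. The strongest was reached by 1583 of 6624 minus-strand genes, or 23.9% (22.9 to 24.9%). TWIST2 (chromosome 2, plus strand, 238848085 to 238910534) had no peak. It is on the strand where 29.3% of protein-coding genes had one.

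TCF4 is the E protein also called E2-2, and should not be confused with the Wnt effector TCF7L2, which shares the old name. Its gene (ENSG00000196628.18, chromosome 18, minus strand, 55222185 to 55635957) had 3 peaks with 662 bases. The strongest, chr18:55227641-55228000, was 360 bases long with a score of 1.3e-11. One of 151 bases at chr18:55224223-55224373 had a score of 3e-07, and one of 151 bases at chr18:55589640-55589790 had a score of 7.9e-05. TCF4 had the weakest strongest peak of the 4 minus-strand factors. Of minus-strand genes with a peak, 4137 of 6624 or 62.5% (61.3 to 63.6%) had one as strong or stronger, so TCF4 was weaker than most genes of its strand, while its number of peaks was reached by 31.2% of those genes.

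PRRX1 (ENSG00000116132.12, chromosome 1, plus strand, 170662768 to 170739421) had 1 peak. It was 181 bases long, which is the median length of a plus-strand peak, and lay at chr1:170726836-170727016 with a score of 0.00026. Of the plus-strand genes with a peak, 78.6% (77.2 to 79.9%) had a strongest peak as strong or stronger. The epithelial factors OVOL1 (chromosome 11, 65787063 to 65797214) and GRHL2 (chromosome 8, 101492439 to 101681200) had no peak on either strand anywhere within their RefSeq spans. The strand of these 2 genes was not taken from a source used here, so they were set against the share of all protein-coding genes with a peak, 40.8%.

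Peaks of the group lay both near the 3′ end of genes and nearer the start. Each peak was located by its midpoint, as a share of the whole gene with introns. In 6 of the 16 peaks it lay in the last 10% of the span, in 2 in the first 10%, and in 8 in between. For all placed peaks of protein-coding genes, the last 10% held 36.4% (plus strand) and 37.8% (minus strand). The first 10% held 13.2% and 12.1%, and the part in between 50.4% and 50.1%. The shares of the group were thus near those of the list at each place. The strongest peak was in the last 10% in 4 of the 7 factors, SNAI1, ZEB1, ZEB2 and TCF4, against 38.3% of plus-strand and 41.9% of minus-strand genes. In the short genes SNAI2 and TWIST1 the strongest peak lay at 33.4% and 30.5% of the span, and in PRRX1 at 83.7%. In ZEB2 the 3 clustered peaks lay at 88.3 to 89.1%, just before the last 10%. Which exon or untranslated region a peak lies in was not analysed here.

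**Figure D3:**
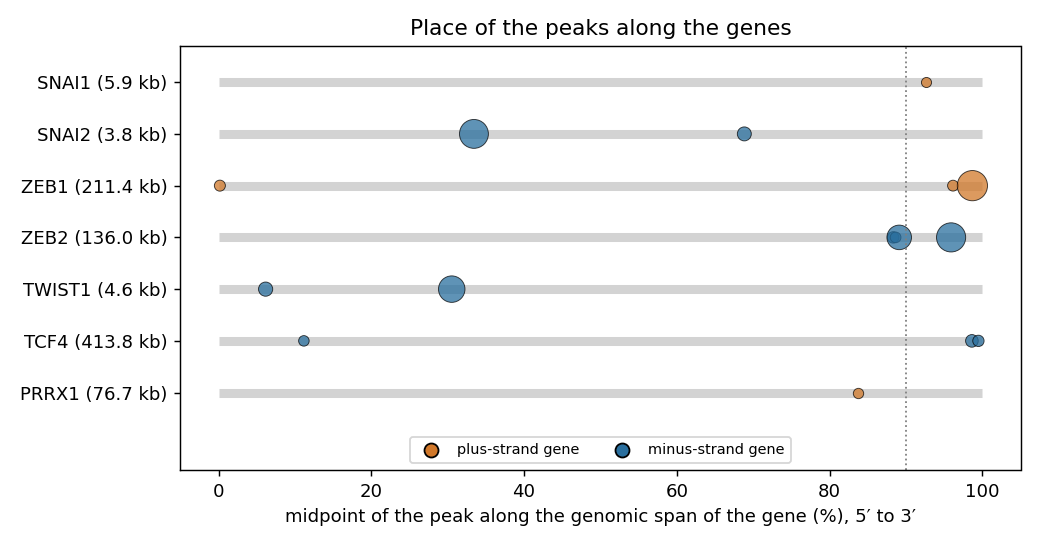
Midpoint of each peak along the genomic span of its gene in %, from the 5′ to the 3′ end, with larger points for stronger peaks, the span of the gene in brackets and a dotted line at 90%. The strongest peaks of ZEB1, ZEB2 and TCF4 sit beyond the line, those of SNAI2 and TWIST1 at 33.4% and 30.5%.

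Peaks beside an annotated start were found on ZEB1 and TCF4. Where RefSeq start sites were at hand, the first ZEB1 peak began 78 bases downstream of a start, and the most upstream TCF4 peak 21 bases downstream of one. The latter start is internal, 46146 bases from the 5′ end of the gene. Start sites were at hand for the genes of 4203 plus-strand and 10771 minus-strand peaks of the list. Of these peaks, 6.14% and 6.18% began within 100 bases downstream of a start of their gene. Only starts at or upstream of the 5′ border of a peak were counted, so a start inside a peak was not looked for. No start sites were at hand for SNAI1, SNAI2 and TWIST1, so their peaks could not be placed in this way. The weaker TWIST1 peak began at the first base of the RefSeq span, as given above.

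For the ZEB1 and TCF4 peaks beside a start, part of the reference sequence was at hand in RefSeq promoter windows of GRCh38.p14. None was at hand for the TWIST1 peak. The sites that match RRACH are shown because that is the sequence in which m6A is set. RRACH was searched as A or G at the first and second place, A at the third, C at the fourth and A, C or T at the fifth, on both strands, with overlapping matches counted. In the TCF4 peak, 142 of 151 bases were covered and held 5 matches on the strand of the mRNA and 2 on the other. In the final 142 bases of 34943 promoter windows, 73.9% held at least 1 match on the strand of the gene, with a mean of 1.47, and 93.2% held 1 on either strand. Most of these window bases lie upstream of a start. The covered bases of the peak extend beyond the window of the nearest start upstream of it. Another window, whose start may lie inside the peak, therefore supplied part of them. How alike the compared sequences are was not examined. The sites of the TCF4 peak with their flanks, written 5′ to 3′ in the sense of the mRNA with the match in capitals, were as follows.
TCF4, chr18:55589739-55589767, minus strand: tatctttcagggAAACCtattattatcaa
TCF4, chr18:55589665-55589693, minus strand: atgatgatgatgAGACAcctctaaacttg
TCF4, chr18:55589655-55589683, minus strand: tgagacacctctAAACTtggaacaagttt
TCF4, chr18:55589649-55589676, minus strand: cctctaaacttgGAACAagtttaagact
TCF4, chr18:55589649-55589665, minus strand: ggaacaagtttaAGACT

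The last 4 of these lie within 45 bases, so their flanks overlap. None of the 5 has a G at both of the first 2 places. A match is a description of the reference sequence, and which of these adenosines was methylated was not measured.

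Of the 16 peaks, the first ZEB1 peak was the 1 that shared bases with a peak of the other strand. ZEB1-AS1 is a non-coding RNA transcribed from the ZEB1 start region in the other direction (ENSG00000237036.5, minus strand). It had 3 peaks, of 180 bases at chr10:31318906-31319085 (score 0.00033), 689 bases at chr10:31318038-31318726 (5e-76) and 120 bases at chr10:31317859-31317978 (0.0016). The ZEB1 peak shared 86 bases with the strong ZEB1-AS1 peak and 180 bases, all of that peak, with the nearest one. Together these made up 266 of its 390 bases, or 68.2%. In the list, 17.8% of plus-strand peaks overlapped one on the minus strand. The list alone does not say to which of the 2 RNAs the shared signal belongs, and for ZEB1-AS1 26.5% of minus-strand genes had a strongest peak as strong or stronger. The strong ZEB1 peak near the 3′ end had no such overlap, and without overlapping peaks ZEB1 stood at 2.36% of plus-strand genes.

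**Figure D4:**
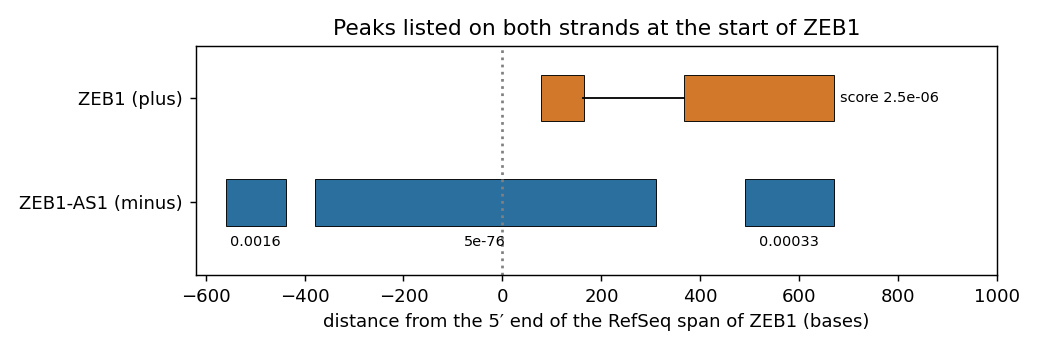
Peaks of ZEB1 and ZEB1-AS1 at the start of ZEB1, drawn to scale by distance in bases from the first RefSeq base of ZEB1 (dotted line), with the score beside each peak and a thin line between the 2 blocks of the ZEB1 peak. The ZEB1 peak (2.5e-06) lies partly over the strong ZEB1-AS1 peak (5e-76) and wholly covers a weak one (0.00033).

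The sequence of this region is shown for both strands because peaks were listed on both. Of the 390 bases of the ZEB1 peak 219 were covered, with 2 matches to RRACH on the ZEB1 strand and 2 on the other. All 4 lay in a run of 121 bases. In their final 121 bases, 68.7% of promoter windows held a match on the strand of the gene, with a mean of 1.24. A covered run of 85 bases in the same peak held no match, where 57.3% of windows held one in their final 85 bases. Of the 689 bases of the strong ZEB1-AS1 peak 459 were covered, with 6 matches on its own strand and 8 on the ZEB1 strand. A run of 300 bases held 4 of the 6, against a mean of 3.33 in promoter windows of that length. One of 159 bases held the other 2, against a mean of 1.65 in the final 159 bases of the windows. The counts on its own strand were thus near those of promoters in general. In the bases that the ZEB1 peak shares with the nearest ZEB1-AS1 peak, these were the sites on the 2 strands, followed by 2 sites of the strong ZEB1-AS1 peak that lie in the gap between the 2 blocks of the ZEB1 peak.
ZEB1, chr10:31318972-31319000, plus strand: cacacctgaggaAAACTtttccctcgccc
ZEB1, chr10:31319024-31319052, plus strand: cacggttgccgcAAACCgcccggtcccta
ZEB1-AS1, chr10:31319048-31319076, minus strand: gctctacggccgGAACCttgttgctaggg
ZEB1-AS1, chr10:31319033-31319061, minus strand: ccttgttgctagGGACCgggcggtttgcg
ZEB1-AS1, chr10:31318646-31318674, minus strand: ggatcgcggtctGGACTccccggggagtt
ZEB1-AS1, chr10:31318592-31318620, minus strand: tggggacggcgaGGACAcgcggcgaccgg

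Genes that act with or against these factors were counted from lists set up for this purpose. Of 41 such genes 29 had a peak, and in 21 a peak reached the list median. For all protein-coding genes the shares were 40.8% and 26.6%. Of the 29 genes 17, and of the 21 genes 14, are on the minus strand, where the shares were 55.6% and 43.8%. Strand was counted here only among genes with a peak. How far it enters the comparison was not tested. In 22 of the 29 the strongest peak was among the stronger 50% of its strand, as was the case for 4 of the 7 EMT factors with a peak. The lists were chosen with earlier results of these data known, and no test was made of them.

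Co-repressors that the SNAI and ZEB proteins recruit had a peak in 9 of 10 cases, and in 8 the median was reached, against 40.8% and 26.6% of all protein-coding genes. SIN3A, a scaffold for histone deacetylases, had 3 peaks, the strongest listed at 0, and HDAC2, a histone deacetylase, had 1 with a score of 1e-242. CTBP1 and CTBP2 (which bind the ZEB proteins), HDAC1, EZH2, AJUBA, SMARCA4 and RCOR1 also had peaks. KDM1A, the histone demethylase that the SNAI proteins bind through their SNAG domain, had none. Of the 9 genes 6 are on the minus strand, where 55.6% of genes had a peak and 43.8% reached the median, and 3 are on the plus strand (29.3% and 12.2%). RCOR1 is one of the latter, with a single weak peak (0.0011).

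Genes of kinases, ubiquitin ligases and other enzymes linked to the stability of SNAI and ZEB proteins had a peak in 7 of 8 cases, and in 6 the median was reached, against 40.8% and 26.6% of all protein-coding genes. Of the 7 genes 5 are on the minus strand, with its shares of 55.6% and 43.8%. The strongest were on ubiquitin ligase subunits, with a score of 1e-172 for FBXL14 and 1e-111 for FBXL5. FBXO11, GSK3B, CSNK1A1, USP9X and FBXO45 had peaks, and BTRC had none. In these 7 genes the strongest peak was among the stronger 50% of its strand.

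Among 14 related factors 8 had a peak, and 4 of them reached the median. Of all protein-coding genes 40.8% had a peak and 26.6% reached the median, so the count at the median was near the share over both strands. Of the 8 genes 4 are on the minus strand (55.6% and 43.8%) and 4 on the plus strand (29.3% and 12.2%). On each strand 2 of them reached the median. SOX4, a TGF-β responsive factor, had 4 peaks and a strongest score of 1e-229, which 1.68% of plus-strand genes with a peak reached. GSC, a developmental homeobox factor, had 1 peak with a score of 1e-123. TCF3, SOX9, GRHL3, SNAI3, OVOL2 and HMGA2 also had peaks, and PRRX2, OVOL3, GRHL1, FOXC2, KLF8 and TCF12 had none. Of the 3 E proteins, TCF3 had 5 peaks with a strongest score of 5e-98, TCF4 had the 3 described above and TCF12 had none. Family members of OVOL1 and GRHL2 had 1 peak each where they had any. These were OVOL2 (7.9e-05) and GRHL3 (9.3e-06), and neither reached the median.

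The ID proteins capture E proteins and so keep TWIST and TCF4 from DNA. ID4 had 1 peak with a score of 1.3e-12 and ID2 had 1 with a score of 0.0024, while ID1 and ID3 had none. Of 5 genes of epithelial splicing and identity, KLF4 (1e-186), ELF3 (1.4e-08) and ESRP2 had peaks, of which 2 reached the median, and ESRP1 and CDH1 had none. Both lists are small, and their counts (2 of 4 and 3 of 5 with a peak) are to be read against the 40.8% of protein-coding genes with a peak and the 26.6% that reached the median. The 2 ID genes with a peak are on the plus strand (29.3% and 12.2%). Of the 3 epithelial genes with a peak 2 are on the minus strand (55.6% and 43.8%) and 1 on the plus strand.

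**Figure D5:**
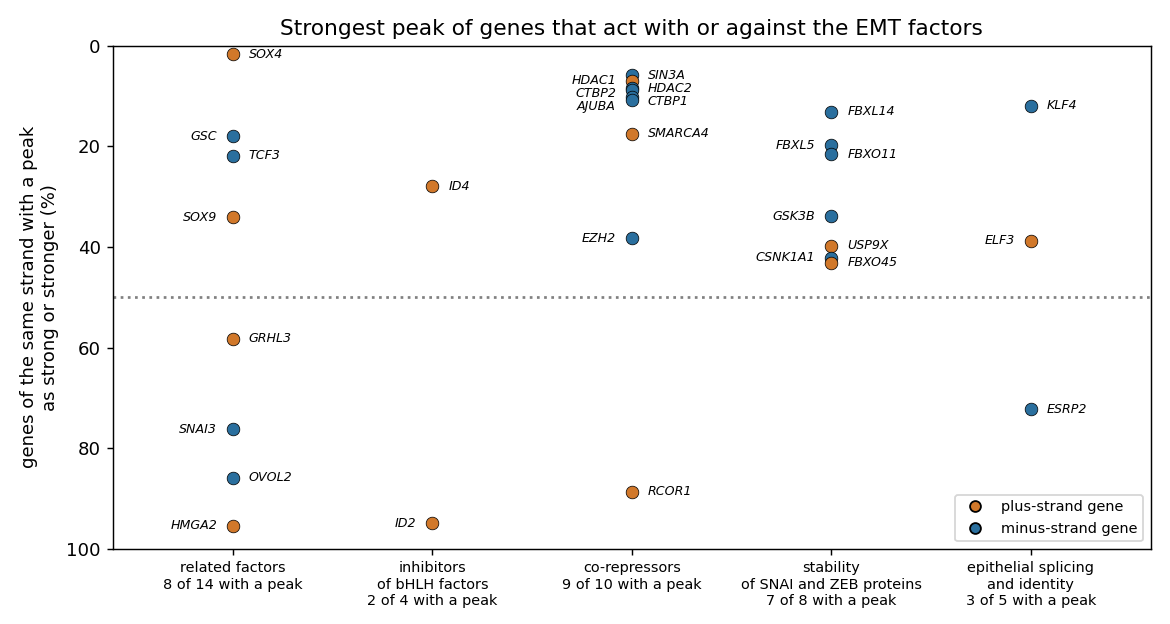
Genes of the 5 lists with a peak, each placed at the share of genes of its own strand (in %) whose strongest peak is as strong or stronger, so that the strongest are at the top. Of the co-repressors 8 of 9 lie above the line at 50%, and of the related factors 4 of 8.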

How the data were processed

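m6A-seq libraries of MDA-MB-231 poly(A) RNA (2 IP, 2 input) were made with a stranded kit, per the labels. The authors mapped reads with STAR to a human transcriptome of GENCODE v33, called peaks with exomePeak at default settings and kept those past thresholds of fold enrichment and FDR. The processing notes name hg38. The deposited score was read as a p-value; the file header does not state whether it is one or an FDR. Replicates had been combined, and the depth is unknown.

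Gene IDs were matched without version, and 10103 of 10140 had a symbol. Spans, starts and promoter sequences came from RefSeq on GRCh38.p14. A strand was at hand for 15842 of the 20033 protein-coding genes used as background. Blocks were written from 1, and overlaps needed 1 base. A score of 0 was ranked at a −log10 of 323. Genes were ranked by their smallest score among genes of their strand. All 10 factors are named, and of each list every gene, with values for the 2 strongest. A further gene was taken out of the lists and their counts and is not reported here. RCOR1, GRHL3, OVOL2, TCF3 and ZEB1-AS1 were given values after these were seen. Members, lists and settings were chosen with earlier results of these data known. Functions were tested on simulated data. Python 3.11.15, pandas 2.3.3 and scipy 1.17.1 were used.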

Additional observations from a re-analysis of the deposited data

How the results depend on the processing

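The number of peaks on the EMT factors was 16 and fell to 8 when every peak had to reach the median score of the list. The 7 factors with a peak became 5 under that setting, without SNAI1 and PRRX1. Using the first part of the list alone left 16 peaks, as did merging, and leaving out peaks that overlap one on the opposite strand left 15. The number of factors in the stronger 50% of the ranking was 4 within the strand, 4 among protein-coding genes of the strand, 4 with both strands pooled and 4 without overlapping peaks. Single shares moved more, and for ZEB1 3.84% became 13.7% with both strands pooled and 2.36% without overlapping peaks. TCF4 moved from 62.5% to 70.6% among protein-coding genes and 51.1% with both strands pooled. In the last 10% of the span there were 6 peaks, and 7 lay within 5000 bases of the 3′ end. A rule of 50% of the shorter peak left the 1 opposite-strand overlap. For partner genes 29 with a peak became 21 that reached the median.

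No paired analysis was possible because single libraries have no values in the file. This also prevented a replicate block and the omission of a replicate. The unknown depth limits what a missing peak means.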
